A study of Saccharomyces cerevisiae with 26 samples.

Results

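The 10 genes described here build and remodel the glucan and chitin of the yeast cell wall. The rule that chose them goes by gene name and by what each product is known to do, with no measured value in it, and they are 10 of the 6600 genes measured in each library. They are FKS1 (YLR342W), GSC2 (YGR032W), CHS3 (YBR023C), KRE6 (YPR159W), GAS1 (YMR307W), CRH1 (YGR189C), UTR2 (YEL040W), BGL2 (YGR282C), SCW4 (YGR279C) and SCW10 (YMR305C), and all 10 passed the filter on low values in every fit. RNA was sequenced from *S. cerevisiae* CEN.PK113-7D, a laboratory strain, grown in aerobic, glucose-limited bioreactors to learn how acidity and dissolved CO2 act on very slowly growing cells. The 4 steady-state groups were fed 20 g/L glucose and diluted at 0.025 per hour: pH 3 with 50% CO2 in the inlet gas, pH 3 with 0.04% CO2, pH 5 with 50% CO2 and the reference, pH 5 with 0.04% CO2, with 3 libraries each. For pH 3 with 50% CO2, only 1 library was labelled as a chemostat, and the other 2 came from the industrial retentostats at sampling point 1, which had the same pH, CO2 and dilution rate. Retentostats, in which a filter holds back all cells so that growth slows toward zero, were run in 2 cultures under industrial conditions (pH 3, 50% CO2, 20 g/L glucose throughout) and in 2 cultures under laboratory conditions (pH 5, 0.04% CO2, with the feed lowered to 7.5 g/L glucose once the retentostat began), each sampled at 4 points. All cultures were of a single strain, and all media except that of the laboratory retentostats held extra iron sulfate and biotin. The study's text states that cultures at pH 3 oscillated and were less viable than those at pH 5, so a library reports on a mixture of cells.

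The wall of *S. cerevisiae* is a mesh of β-1,3-glucan onto which β-1,6-glucan, chitin and mannoproteins are linked. Glucan and chitin are spun out through the plasma membrane by synthases, and enzymes anchored to or secreted into the wall then cut, lengthen and cross-link the chains so that the wall can expand at the bud and still bear turgor. Many genes for such enzymes are known to be transcribed with the cell cycle, through the factor SBF, and on wall stress, through the cell wall integrity pathway and its factor Rlm1.

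The DNA ahead of 9 of the genes, all but SCW4, was read for the letters that these and other factors are known to recognise. The windows run from 450 to 151 bases before the start codon, 300 bases in all, in genome build R64. The 6 motifs were searched on both strands in the 6000 windows of the genome's genes that had one. The SBF motif CNCGAAA was found in 7 of the 9 windows (all but KRE6 and BGL2), and in 13.6% of all 6000. The MBF motif ACGCGT was found in 3 windows (CHS3, CRH1 and SCW10), against 3.4% of all. The Rlm1 motif, CTA and TAG with 4 bases of any kind between them, was found in GSC2 and BGL2 and in 5.68% of all windows. The Crz1 motif GNGGCTNA was found in none of the 9 and in 7.63% of all. The Rim101 motif GCCAAG was found in SCW10 and in 12.6% of all, and the stress motif CCCCT of Msn2 and Msn4 was found in none of the 9 and in 23.4% of all. No match overlapped another. These matches are letters in a window and no measure of binding, and 160 bases of the BGL2 window lie inside a neighbouring gene. The windows of 4 genes are printed 5′ to 3′ on the strand of the gene, with every match in capitals, because they are the paralogous synthases FKS1 and GSC2 and the 2 genes with an SBF match, of the 9, whose levels differed most between the pH 3 groups. FKS1 is read from chrXII:809547-809846 (plus strand), GSC2 from chrVII:547814-548113 (plus strand), CRH1 from chrVII:878343-878642 (minus strand) and SCW10 from chrXIII:880383-880682 (minus strand).
FKS1: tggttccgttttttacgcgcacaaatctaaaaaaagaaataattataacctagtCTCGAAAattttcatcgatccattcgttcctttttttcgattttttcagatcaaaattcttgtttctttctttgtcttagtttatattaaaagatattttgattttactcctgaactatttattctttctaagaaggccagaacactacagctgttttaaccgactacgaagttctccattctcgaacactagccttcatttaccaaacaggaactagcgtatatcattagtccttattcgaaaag
GSC2: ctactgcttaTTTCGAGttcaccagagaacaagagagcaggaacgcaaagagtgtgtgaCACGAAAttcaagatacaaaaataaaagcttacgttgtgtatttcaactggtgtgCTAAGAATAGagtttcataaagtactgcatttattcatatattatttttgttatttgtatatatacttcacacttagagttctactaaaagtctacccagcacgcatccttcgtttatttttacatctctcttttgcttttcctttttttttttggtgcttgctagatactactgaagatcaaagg
CRH1: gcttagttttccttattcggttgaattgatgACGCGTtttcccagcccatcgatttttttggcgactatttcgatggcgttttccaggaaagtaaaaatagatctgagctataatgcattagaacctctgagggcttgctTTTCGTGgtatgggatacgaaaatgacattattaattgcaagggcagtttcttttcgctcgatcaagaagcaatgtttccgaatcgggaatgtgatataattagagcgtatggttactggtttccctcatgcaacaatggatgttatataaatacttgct
SCW10: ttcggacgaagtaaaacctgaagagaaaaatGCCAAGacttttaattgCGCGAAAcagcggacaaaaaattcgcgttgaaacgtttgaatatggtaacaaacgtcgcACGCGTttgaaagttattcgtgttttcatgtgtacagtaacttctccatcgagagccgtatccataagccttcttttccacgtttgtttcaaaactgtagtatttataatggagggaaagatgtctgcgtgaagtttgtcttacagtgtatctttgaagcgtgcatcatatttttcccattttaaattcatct

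Depth on genes was 12528647 to 16709016 reads per library in the 12 chemostat libraries, between 13109387 and 16709016 in the industrial retentostats and between 21717268 and 86470818 in the laboratory retentostats. The 10 genes were deeply covered, and even UTR2, the lowest, had 146 to 3628 reads. Levels are given as scaled FPKM, that is, the deposited FPKM (reads per gene corrected for gene length and depth) multiplied by 1 factor per library, which ranged from 0.87 to 1.59 in the chemostats and was highest at pH 3 with 0.04% CO2. A pair of libraries at pH 5 stood apart, for these genes and over all genes with enough signal. Over all such genes, the deviations of the 2 libraries from their group means correlated at 0.831, the highest of the pairs compared. Their correlations with their replicates were 0.966 to 0.975, against 0.991 and 0.996 among those replicates. Replicate 3 of pH 5 with 0.04% CO2 was the lowest of its group for 9 of the 10 genes, which summed to 3475 scaled FPKM against 6752 and 6167 in its partners, and replicate 1 of pH 5 with 50% CO2 was the lowest for 10 of 10, with 2462 against 5556 and 5091. As a check on the strain, a haploid of mating type a, the a-type gene MFA1 stood at 1435 to 32800 scaled FPKM in all libraries and the alpha-type genes STE3 and SAG1 at or below 67.6. The a-type genes MFA2, STE2 and AGA2 lay above STE3 and SAG1 in the chemostats. BAR1, also of the a type, went the other way at pH 3. With 0.04% CO2 it stood at 12.6 to 19.4, against 48.5 to 61.3 for SAG1. With 50% CO2 it stood at 13.4 to 22.8, against 32.7 to 34.85 for SAG1. MF(ALPHA)1, also of the alpha type, stood at 10.6 to 174 in the other chemostat groups and at 964 to 2617 in the reference, which goes against the label for that gene.

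The widest difference was between the groups at pH 3. With 50% CO2, 9 of the 10 genes were lower than with 0.04% CO2 (limma, adjusted p under 0.05), and 27.0% of all 5184 genes tested fell in the same comparison. In log2 terms the 10 changes ran from -2.08 to -0.68 with a median of -1.58, against a median of -0.01 over all genes. At the study's own limits for differential expression (a change of more than 2-fold and an adjusted p under 0.005), 7 of the 10 fell, against 8.37% of all genes. For all 10 genes each of the 3 libraries at 50% CO2 lay below each of the 3 at 0.04% CO2, a pattern that 34.5% of all genes showed. In such bulk RNA, fewer cells that express a gene and less RNA of it per cell cannot be told apart. Without scaling between libraries the median of all genes moved to 0.60, with 3056 genes rising and 495 falling against 1135 and 1398 with scaling, and the median of the 10 genes was then -0.96. The part of scaling in this difference was not tested.

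**Figure D1:**
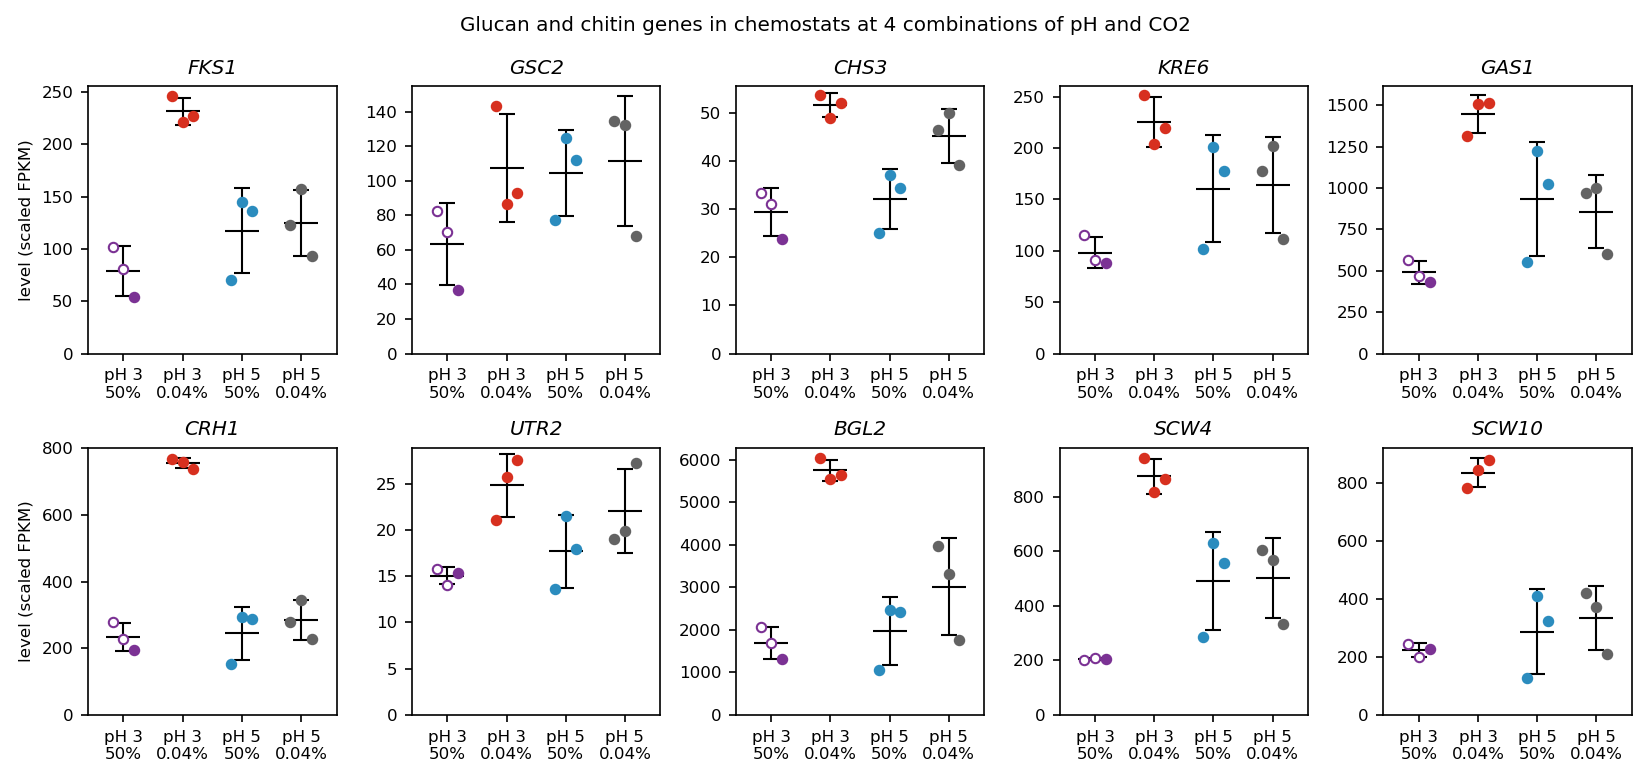
Level of each of the 10 genes (scaled FPKM, vertical axis from 0) in the 12 chemostat libraries, by pH and CO2 in the inlet gas; points are libraries, open points are the 2 libraries from industrial retentostats at sampling point 1, and black lines give mean and SD (n = 3). For all 10 genes the 3 libraries at pH 3 with 50% CO2 lie below the 3 at pH 3 with 0.04% CO2, and CRH1 reaches 737 to 768 only at pH 3 with 0.04% CO2.

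Among the synthases, FKS1 encodes the main catalytic subunit of β-1,3-glucan synthase, through which most of the wall's glucan is made in growing cells. It had 102, 80.4 and 53.8 scaled FPKM at pH 3 with 50% CO2, against 246, 221 and 227 with 0.04% CO2. At pH 5, FKS1 had 70.7, 145 and 137 with 50% CO2 and 123, 157 and 93.6 in the reference. The 3 libraries at pH 3 with 0.04% CO2 were the highest of the 12. FKS1 was 0.332 times as high with 50% CO2 as with 0.04% CO2 at pH 3 (log2 change -1.59, SE 0.29, adjusted p = 0.002). GSC2, also called FKS2, encodes the alternate catalytic subunit, known to be used under starvation, wall stress and sporulation. It had 82.8, 70.1 and 36.8 scaled FPKM at pH 3 with 50% CO2, against 144, 86.4 and 93.0 with 0.04% CO2. At pH 5, GSC2 had 77.1, 125 and 112 with 50% CO2 and 134, 132 and 68.0 in the reference. It was the only one of the 10 that did not pass the test between the pH 3 groups (log2 change -0.80, SE 0.34, adjusted p = 0.07), although its libraries did not overlap. GSC2 passed without replicate 1 of the industrial retentostats (-1.03, adjusted p = 0.041), without replicate 3 of the reference (-0.80, adjusted p = 0.039) and with the single library labelled as a chemostat (-1.49, adjusted p = 0.031).

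CHS3 encodes chitin synthase III, which makes most of the chitin of the lateral wall and of the bud-neck ring. Its levels were low and narrow, with 33.4, 31.0 and 23.8 scaled FPKM at pH 3 with 50% CO2, against 53.8, 49.0 and 52.2 with 0.04% CO2. At pH 5, CHS3 had 25.0, 37.1 and 34.4 with 50% CO2 and 46.5, 50.1 and 39.2 in the reference. At either pH, each library at 50% CO2 lay below each library at 0.04% CO2. At pH 5, 15.5% of all genes had no overlap in either direction, and CHS3 was 1 of the 10, close to that share. At pH 3, 34.5% of all genes were lower in this way. Between the pH 3 groups CHS3 fell by 0.81 on the log2 scale (SE 0.17, adjusted p = 0.0034), but without scaling between libraries the change was -0.20 (adjusted p = 0.24). KRE6 encodes a membrane protein of the secretory pathway that is required for β-1,6-glucan, the polymer that links mannoproteins to the rest of the wall. It had 116, 90.5 and 88.3 scaled FPKM at pH 3 with 50% CO2, against 252, 204 and 220 with 0.04% CO2. At pH 5, KRE6 had 102, 201 and 178 with 50% CO2 and 178, 202 and 111 in the reference. Its level at pH 3 with 50% CO2 was 0.437 times that with 0.04% CO2 (log2 change -1.19, SE 0.26, adjusted p = 0.0048).

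Of the enzymes that join chains, GAS1 encodes the major β-1,3-glucanosyltransferase, held at the surface by a GPI anchor, which elongates glucan chains. It had 568, 470 and 434 scaled FPKM at pH 3 with 50% CO2, against 1315, 1510 and 1512 with 0.04% CO2. At pH 5, GAS1 had 554, 1223 and 1022 with 50% CO2 and 971, 998 and 602 in the reference. The lowest library at pH 3 with 0.04% CO2 lay above all others. GAS1 fell by 1.56 between the pH 3 groups (SE 0.28, adjusted p = 0.0017). CRH1 and UTR2 encode transglycosylases that attach chitin to β-glucan. CRH1 stood at 278, 228 and 196 scaled FPKM at pH 3 with 50% CO2 and at 768, 760 and 737 at pH 3 with 0.04% CO2. At pH 5 it stood at 152, 294 and 288 with 50% CO2 and at 280, 346 and 227 in the reference, so the group at pH 3 with 0.04% CO2 was set off from the other 9 libraries, none of which exceeded 346. With 50% CO2 at pH 3, CRH1 was at 0.308 times its level with 0.04% CO2 (log2 change -1.70, SE 0.25, adjusted p = 5.9e-04).

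UTR2 had far lower levels, and its spread between groups was narrow. It had 15.8, 14.1 and 15.3 scaled FPKM at pH 3 with 50% CO2, against 21.1, 25.8 and 27.6 with 0.04% CO2. At pH 5, UTR2 had 13.7, 21.6 and 17.9 with 50% CO2 and 19.1, 19.9 and 27.2 in the reference. The fall of UTR2 between the pH 3 groups was 0.68 on the log2 scale (SE 0.18, adjusted p = 0.012), the smallest change of the 10. Without scaling between libraries it was -0.08 (adjusted p = 0.72), and with only the library labelled as a chemostat -0.65 (adjusted p = 0.094).

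BGL2, SCW4 and SCW10 encode soluble wall proteins of the glucanase family, of which Bgl2 is a glucanosyltransferase and among the most abundant proteins that can be extracted from the wall. BGL2 was the highest of the 10 in every chemostat library, with 2070, 1686 and 1328 scaled FPKM at pH 3 with 50% CO2, against 6039, 5559 and 5645 with 0.04% CO2. At pH 5, BGL2 had 1055, 2468 and 2422 with 50% CO2 and 3974, 3320 and 1762 in the reference. It was 0.290 times as high with 50% CO2 as with 0.04% CO2 at pH 3 (log2 change -1.78, SE 0.36, adjusted p = 0.0029). SCW4 was at 202, 209 and 207 scaled FPKM at pH 3 with 50% CO2, against 944, 816 and 865 with 0.04% CO2. At pH 5, SCW4 had 287, 631 and 557 with 50% CO2 and 606, 570 and 335 in the reference. Its 3 libraries at pH 3 with 50% CO2 lay below the other 9, and its fall between the pH 3 groups was the largest of the 10, to 0.236 times (log2 change -2.08, SE 0.28, adjusted p = 4.2e-04). SCW10 was at 246, 200 and 227 scaled FPKM at pH 3 with 50% CO2, against 783, 844 and 880 with 0.04% CO2. At pH 5, SCW10 had 126, 412 and 323 with 50% CO2 and 420, 373 and 210 in the reference. It fell by 1.90 between the pH 3 groups (SE 0.37, adjusted p = 0.0027). In the 12 fits that left out 1 library, 9 or 10 of the 10 genes fell.

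The effect of pH alone was asked in the cultures with 0.04% CO2. There, 3 of the 10 genes rose at pH 3 relative to pH 5, against 13.5% of all genes, and 7 of the 10 had all 3 libraries above those of the reference, against 26.3% of all genes. CRH1 rose 2.69-fold (log2 change 1.43, SE 0.25, adjusted p = 0.0025) and was the 1 member past the study's limits, which 2.93% of all genes passed upward. SCW10 rose 2.60-fold (1.38, SE 0.37, adjusted p = 0.023) and FKS1 rose 1.89-fold (0.92, SE 0.29, adjusted p = 0.044). BGL2 (1.01, SE 0.36), SCW4 (0.84, SE 0.28) and GAS1 (0.79, SE 0.28) had adjusted p of 0.063, 0.052 and 0.064. KRE6 (0.50), CHS3 (0.19), UTR2 (0.17) and GSC2 (-0.02) had adjusted p from 0.19 to 0.97, and without scaling CHS3 (-0.25) and UTR2 (-0.26) took the other sign. CRH1 passed in every alternative run, whereas SCW10 lost its call without reference replicate 3 (1.08, adjusted p = 0.09), without replicate 2 (1.37, adjusted p = 0.068) or without replicate 3 (1.34, adjusted p = 0.077) of pH 3 with 0.04% CO2, and FKS1 lost it in 7 such fits (0.73 to 0.95, adjusted p 0.051 to 0.16). FKS1 also lost it without scaling between libraries (0.47, adjusted p = 0.096) and with quantile normalization (0.73, adjusted p = 0.087). Without the pair of low pH 5 libraries, a setting chosen after the data had been seen, 6 of the 10 rose. The share of all genes that rose in that fit is not given. Without scaling, the median of all genes in this comparison was -0.42, with 296 genes rising and 1899 falling against 698 and 405 with scaling, and that of the 10 genes 0.36.

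At 50% CO2 the 10 changes from pH 5 to pH 3 were all negative, with a median of -0.37. SCW4 was the 1 gene of the 10 that fell at pH 3 with 50% CO2 relative to pH 5 with 50% CO2 (log2 change -1.17, SE 0.28, adjusted p = 0.032), against 3.65% of all genes. The other 9 had changes from -0.86 for GAS1 to -0.02 for CRH1, and adjusted p from 0.083 to 0.97. Without replicate 1 of pH 5 with 50% CO2, 4 of the 10 fell: FKS1 (-0.88, adjusted p = 0.025), GAS1 (-1.20, adjusted p = 0.006), KRE6 (-0.95, adjusted p = 0.014) and SCW4. The share of all genes that fell in that fit is not given. SCW4 itself lost its call in 7 fits that left out another library (adjusted p 0.053 to 0.16) and with the single library labelled as a chemostat (adjusted p = 0.12).

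Raising CO2 at pH 5 left the genes without a call. Of the 10, 0 passed the limma test between pH 5 with 50% CO2 and the reference, against 1.83% of all genes, and 1 (CHS3, log2 change -0.49, SE 0.17, adjusted p = 0.22) had an unadjusted p under 0.05. The 10 changes ran from -0.63 for BGL2 to 0.08 for GAS1 with a median of -0.19, and 0 passed in each of the 12 fits without 1 library. In the comparison of both changes at once, pH 3 with 50% CO2 against the reference, SCW4 (-1.24, SE 0.28, adjusted p = 0.018) and CHS3 (-0.61, SE 0.17, adjusted p = 0.039) fell, so 2 of 10 against 6.17% of all genes, and 4 of 10 had all libraries below the reference, against 15.4% of all genes. SCW4 lost its call without 4 single libraries (adjusted p 0.056 to 0.09) and CHS3 without 8 (adjusted p 0.051 to 0.16). The count ran from 0 to 6 when 1 library was left out, with 6 without reference replicate 3 and 5 without replicate 1 of pH 5 with 50% CO2, and 9 of the 10 fell without both of these low libraries (log2 changes -0.43 for CRH1 to -1.14 for GSC2 among those that this setting added). Nearly all of the 10 genes were lowest in these libraries. Replicate 1 of pH 5 with 50% CO2 is in neither group compared here, and the count was higher without it too. The cause of these shifts was not tested, and the share of all genes that fell in such fits is not given. Leaving out both libraries was chosen after the data had been seen.

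Whether CO2 acted differently at pH 3 and at pH 5 was tested as an interaction, the change with CO2 at pH 3 minus that at pH 5. It was negative for all 10 genes, with a median of -1.30, and 5 of the 10 passed the test, against 14.6% of all genes that passed with this sign. SCW4 had the largest interaction (-2.01, SE 0.40, adjusted p = 0.0076), followed by GAS1 (-1.65, SE 0.39, adjusted p = 0.017), FKS1 (-1.47, SE 0.41, adjusted p = 0.031), CRH1 (-1.44, SE 0.35, adjusted p = 0.017) and KRE6 (-1.15, SE 0.37, adjusted p = 0.048). SCW10 (-1.57, SE 0.52, adjusted p = 0.052) and BGL2 (-1.16, SE 0.50, adjusted p = 0.1) did not pass, and neither did GSC2 (-0.75), UTR2 (-0.37) or CHS3 (-0.31), of which UTR2 and CHS3 had the other sign without scaling (0.25 and 0.32). SCW4 passed in every alternative run. GAS1 lost its call without replicate 3 of pH 5 with 50% CO2 (-1.54, adjusted p = 0.051), CRH1 without replicate 2 (-1.28, adjusted p = 0.051) or replicate 3 (-1.29, adjusted p = 0.052) of that group, and FKS1 and KRE6 in 8 and 9 of the 12 fits without 1 library. KRE6 also lost it without scaling (-0.50, adjusted p = 0.16), with quantile normalization (-0.93, adjusted p = 0.068), without the filter on low values (adjusted p = 0.056) and with the single library labelled as a chemostat (-1.29, adjusted p = 0.086). Without the pair of low pH 5 libraries, a setting chosen after the data had been seen, 8 of the 10 passed. The share of all genes that passed in that fit is not given. Without scaling the median interaction was 0.62 over all genes and -0.65 over the 10, and 2332 genes were positive and 335 negative against 326 and 759 with scaling. The comparisons share libraries and are therefore not independent of each other.

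**Figure D2:**
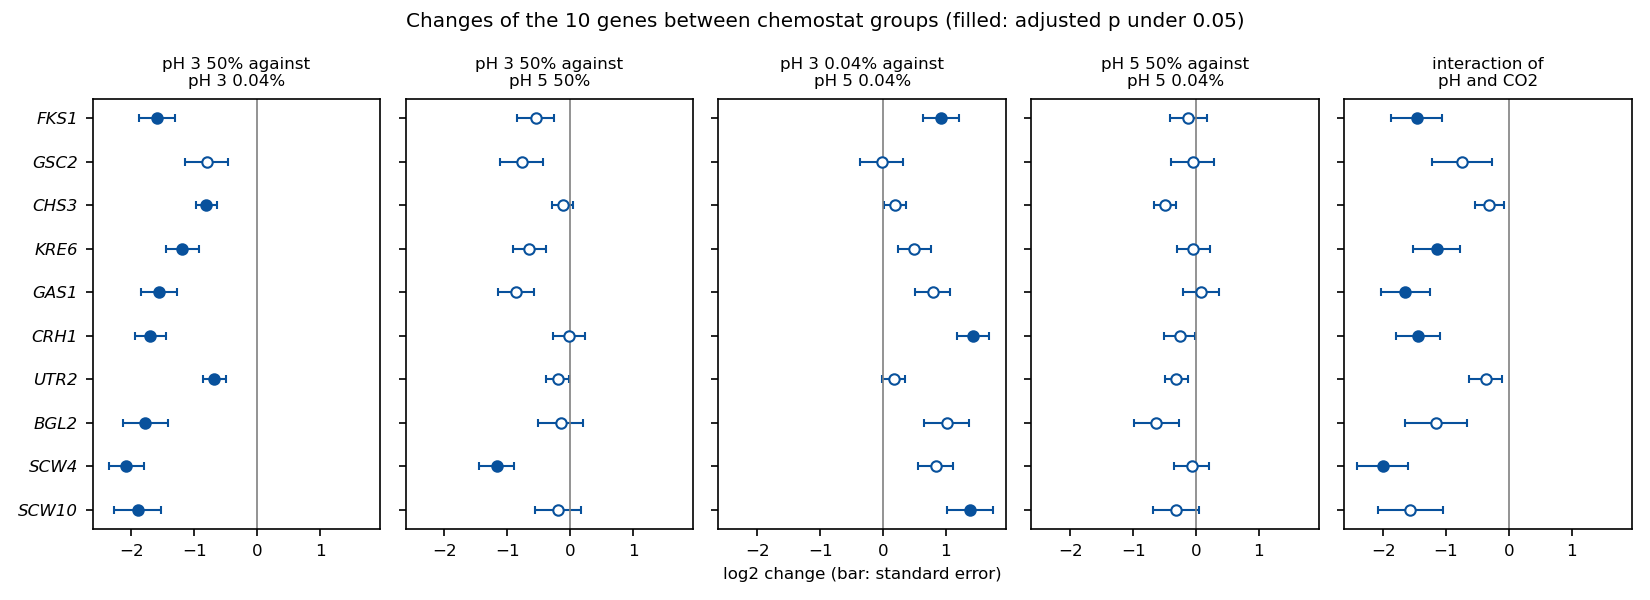
Log2 change of each gene (horizontal axis, bars are standard errors from limma) in 4 comparisons of the chemostat groups and in the interaction of pH and CO2; filled points have an adjusted p under 0.05. At pH 3, 9 of the 10 genes are filled and negative for 50% against 0.04% CO2, whereas at pH 5 none is filled and the points lie between -0.63 and 0.08.

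Among the 10 genes are 3 pairs of paralogs, and the ratio within each pair is given as a description, with no test. The ratio of GSC2 to FKS1 was 0.685 to 0.872 at pH 3 with 50% CO2 and 0.391 to 0.583 at pH 3 with 0.04% CO2, where FKS1 was highest, against 0.821 to 1.09 at pH 5 with 50% CO2 and 0.726 to 1.09 in the reference. CRH1 exceeded UTR2 by 26.7 to 36.5 times at pH 3 with 0.04% CO2 and by 8.34 to 17.6 times in the other 9 chemostat libraries. SCW10 was 0.957 to 1.22 times as high as SCW4 at pH 3 with 50% CO2 and 0.829 to 1.03 times at pH 3 with 0.04% CO2, against 0.438 to 0.653 times at pH 5 with 50% CO2 and 0.625 to 0.692 times in the reference. The libraries of the pH 3 groups lay above those of the pH 5 groups in this last ratio. The authors removed ambiguously mapped reads, which can lower near-identical genes, so the coding sequences were compared. GSC2 and FKS1 shared 80.3% of 5607 aligned bases, SCW10 and SCW4 66.4% of 1152 and UTR2 and CRH1 47.1% of 1245, and no run of 50 bases was shared in any pair. The longest shared runs of the first 2 pairs, 38 and 32 bases, are printed to show how short the identical stretches are.
GSC2 and FKS1: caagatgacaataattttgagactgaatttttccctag
SCW10 and SCW4: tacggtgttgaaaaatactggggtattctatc

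**Figure D3:**
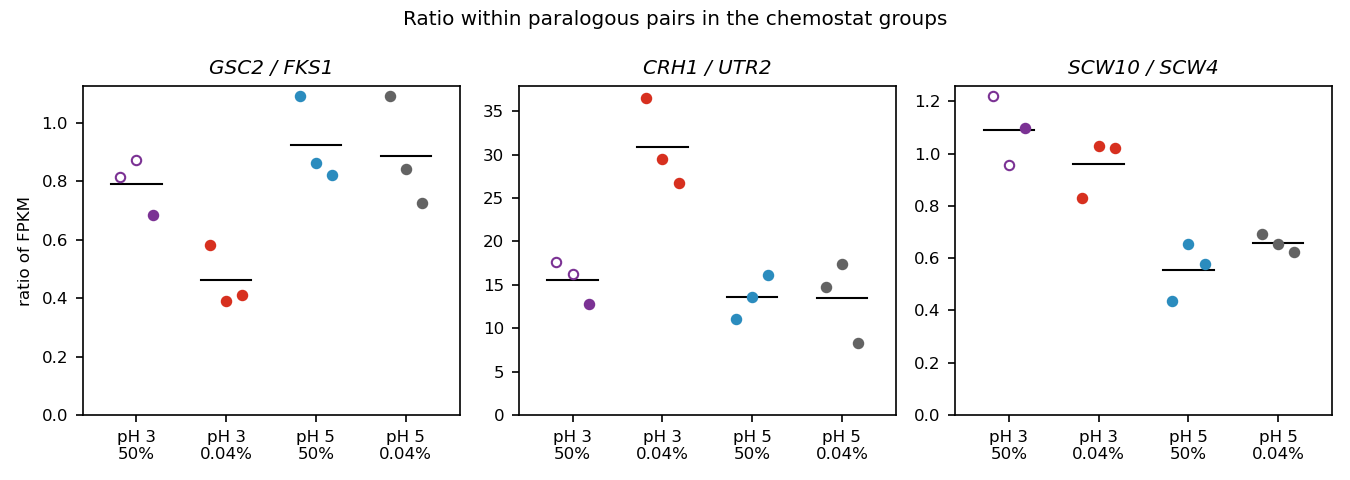
Ratio of FPKM within 3 pairs of paralogs (vertical axis from 0) in the 12 chemostat libraries; points are libraries, open points are those from industrial retentostats at sampling point 1, and lines are group means. CRH1 over UTR2 lies at 26.7 to 36.5 at pH 3 with 0.04% CO2 and GSC2 over FKS1 at 0.391 to 0.583, the highest and the lowest values of their panels.

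Across the 12 chemostat libraries the 10 genes varied together to unequal degrees, given here as a description because the libraries share groups, depth and scaling. The correlation of log2 levels was highest for GAS1 with SCW4 (r = 0.972) and lowest for GSC2 with UTR2 (r = 0.306), and all 45 pairs were positive. The 3 genes most like FKS1 among the 5184 tested were CCW14, a GPI-anchored wall protein, at r = 0.987, GCV2, a subunit of glycine decarboxylase, at 0.985, and YGL114W at 0.982. Those most like GSC2 were SSB2, a ribosome-associated chaperone, at 0.969, RNR2, a subunit of ribonucleotide reductase, at 0.963, and LEU2, an enzyme of leucine synthesis, at 0.958. Those most like CHS3 were TOS7 at 0.956, CHS7, which is required for Chs3 to leave the endoplasmic reticulum, at 0.947, and PSF2, a replication factor, at 0.947.

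Around the 10 genes, 43 other genes of glucan and chitin metabolism were followed in 5 lists, 39 of which had enough signal in the chemostats. At pH 3 with 50% CO2 relative to pH 3 with 0.04% CO2, 22 of the 39 fell and 1 rose, with a median log2 change of -0.60, where 27.0% of all genes fell and 21.9% rose. The list of glucanases, chitinases and SUN proteins fell most widely, with 9 of 12 tested and a median of -1.26. In it SIM1, a SUN-family wall protein, stood at 67.0 ± 7.77 scaled FPKM at pH 3 with 50% CO2, against 393 ± 67.5 with 0.04% CO2 (SD, n = 3 in either group), a log2 change of -2.52. UTH1, also of the SUN family, and EXG1, the major exo-glucanase, changed by -1.43 and -1.31. In chitin synthesis 6 of 13 fell, among them CHS7 (-1.54) and CHS2 (-1.02), the chitin synthase of the primary septum. In β-1,3-glucan synthesis GAS3 (-1.65) and GAS5 (-1.64), relatives of GAS1, fell among 3 of 5, and SMI1, a regulator of glucan synthesis, rose by 0.73. In β-1,6-glucan synthesis KRE1 (-1.79) fell among 3 of 8. CRR1, of the CRH family, fell by 0.51. SMI1 and CRR1 are named here after their values were seen, and so is SHC1 at pH 5.

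At pH 3 with 0.04% CO2 relative to the reference, 14 of the 39 rose and 3 fell, with a median of 0.35, against 13.5% and 7.81% of all genes. The 3 that fell are close to the share over all genes. KRE1 rose by 1.49 on the log2 scale to 291 ± 36.0 scaled FPKM, against 104 ± 21.4 in the reference (SD, n = 3 each). DSE4, a daughter-cell glucanase that helps to part mother and daughter, rose by 1.77. KNH1, a homologue of KRE9, fell by 1.01, to 231 ± 42.7 scaled FPKM against 462 ± 14.1 in the reference. At pH 3 with 50% CO2 relative to the reference, 6 of the 39 fell and 1 rose, against 6.17% and 3.72% of all genes, and SHC1, an activator of Chs3 known from sporulation, fell by 1.19. Relative to pH 5 with 50% CO2, 3 fell and 1 rose, against 3.65% and 2.64% of all genes. With CO2 at pH 5, 1 of the 39 fell (SHC1, -0.82, adjusted p = 0.047), against 1.06% of all genes. In the interaction 10 of the 39 passed with a negative sign and 1 with a positive one, against 14.6% and 6.29% of all genes, and KRE1 was past the study's limits (-1.93, SE 0.24, adjusted p = 0.0017).

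In the retentostats the question was how the genes followed the slowing of growth. Growth rates are not in the labels, so the order of the sampling points, 1 to 4, served in their place. Levels were not compared between the industrial and laboratory retentostats, which the study's methods name as sequenced by different companies. Under industrial conditions the 10 genes moved little. Of the 10, only GSC2 rose with the sampling points and only GAS1 fell, close to the 8.21% and 8.05% of the 5128 genes tested. GSC2 had 82.8 and 70.1 scaled FPKM at point 1, 86.1 and 88.0 at point 2, 107 and 108 at point 3, and 112 and 111 at point 4, so in each culture every point lay above the one before. Its slope was 0.19 per point on the log2 scale (SE 0.04, adjusted p = 0.011, R2 = 0.88) and was past the study's limits for a trend (adjusted p under 0.03 and R2 above 0.8), which 3.55% of all genes passed upward. At point 4 GSC2 was 1.45 times as high as at point 1 (adjusted p = 0.033). It was the only one of the 10 that rose, close to the share of 10.8% over all genes. Without culture 2 at point 1 the slope lost its call (0.16, adjusted p = 0.057), and the change at point 4 lost it in 6 fits without 1 library (0.42 to 0.66, adjusted p 0.051 to 0.18) and with quantile normalization (0.50, adjusted p = 0.071).

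GAS1 under industrial conditions had 568 and 470 scaled FPKM at point 1, 403 and 383 at point 2, 367 and 313 at point 3, and 348 and 345 at point 4. Its slope was -0.19 (SE 0.05, adjusted p = 0.035), and the call was lost in 6 of 8 fits without 1 library (slopes -0.22 to -0.14, adjusted p 0.056 to 0.15). UTR2 had 15.8 and 14.1 scaled FPKM at point 1, 8.19 and 10.4 at point 2, 10.2 and 13.8 at point 3, and 14.1 and 18.2 at point 4, a dip that both cultures shared. It was the 1 gene of the 10 that fell at point 2 relative to point 1 (-0.63, SE 0.19, adjusted p = 0.048), close to the share of 6.67% over all genes. That call was lost in 7 of 8 fits without 1 industrial library (adjusted p 0.053 to 0.32), without scaling (adjusted p = 0.087), with quantile normalization (adjusted p = 0.17), without the filter on low values (adjusted p = 0.056) and without the mean-variance trend (adjusted p = 0.05). At point 3 relative to point 1 and at point 4 relative to point 2, 0 of the 10 passed limma's test, against 9.46% and 0.506% of all genes, with 3 genes at an unadjusted p under 0.05 in each. SCW10, at 246 and 200, 314 and 207, 158 and 126, and 160 and 162 scaled FPKM at points 1 to 4, had a change of -0.65 at point 3 (adjusted p = 0.067) that passed with the culture as a block (adjusted p = 0.037). The slopes of the other 8 genes lay between -0.22 for SCW10 and 0.10 for CHS3 and BGL2.

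Under laboratory conditions several of the genes had fallen by point 2. At point 2, 5 of the 10 had fallen relative to point 1, against 6.04% of the 5531 genes tested, at point 3, 6 of the 10, against 16.3%, and at point 4, 5 of the 10, against 17.6%. SCW4 had 297 and 348 scaled FPKM at point 1, 82.5 and 133 at point 2, 116 and 98.2 at point 3, and 157 and 145 at point 4. Both cultures had their highest value at point 1, and the log2 changes from it were -1.61 (adjusted p = 0.0047), -1.58 (adjusted p = 3.2e-04) and -1.08 (adjusted p = 0.0026). GAS1 had 480 and 559, then 125 and 211, 196 and 161, and 270 and 174 scaled FPKM. Its changes were -1.67 (adjusted p = 0.0064), -1.54 (adjusted p = 7.0e-04) and -1.26 (adjusted p = 0.0021). UTR2, at 26.1 and 34.3, 11.3 and 13.3, 13.2 and 14.4, and 15.7 and 17.4 scaled FPKM, changed by -1.22, -1.06 and -0.82, and all 3 passed. FKS1, at 99.4 and 128, 63.9 and 83.7, 78.0 and 77.5, and 80.7 and 68.1 scaled FPKM, fell by 0.60 at point 4 (SE 0.18, adjusted p = 0.019).

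CRH1 had no call at point 2 and fell at points 3 and 4. It had 281 and 290 scaled FPKM at point 1, 256 and 181 at point 2, 103 and 92.9 at point 3, and 123 and 97.1 at point 4. Both cultures kept more than at the later points until point 2, where the change was -0.41 (adjusted p = 0.17), and at points 3 and 4 it was -1.54 (adjusted p = 2.3e-04) and -1.38 (adjusted p = 3.6e-04). CRH1 was the 1 gene of the 10 with a slope past the test (-0.53 per point, SE 0.10, adjusted p = 0.0069, R2 = 0.78). That is close to the 13.6% of all 5596 genes tested that fell in this trend. CRH1 also fell from point 2 to point 4 (-0.97, adjusted p = 0.0048), the only one of the 10, close to the 12.7% of all genes that fell. At the study's limits CRH1, GAS1 and SCW4 fell at point 4, 3 of 10 against 4.97% of all genes.

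SCW10 and BGL2 rose from point 2 to point 4. SCW10 had 297 and 377 scaled FPKM at point 1, 120 and 148 at point 2, 198 and 195 at point 3, and 301 and 279 at point 4, so the early fall (-1.32, adjusted p = 0.0068) was followed by a rise from point 2 to point 4 (1.11, SE 0.21, adjusted p = 0.0028), and its slope over the 4 points was -0.01. BGL2 had 1401 and 1370, 664 and 1679, 1978 and 2635, and 1582 and 3382 scaled FPKM, and its cultures lay far apart at points 2 and 4. At point 2 the value of culture 1 was below that of point 1 and the value of culture 2 above it, with no call. The rise of BGL2 from point 2 to point 4 was 1.13 (SE 0.39, adjusted p = 0.047), but without culture 1 at point 2 this was 0.46 (adjusted p = 0.36) and without culture 2 at point 4 it was 0.58 (adjusted p = 0.36). Without the filter on low values it also lost its call (1.13, adjusted p = 0.059). These were 2 of the 10, close to the 16.9% of all genes that rose in that interval. GSC2 (101 to 153 scaled FPKM over the 4 points, slope 0.10, adjusted p = 0.23), CHS3 (49.4 to 67.1, slope -0.06, adjusted p = 0.39) and KRE6 (64.9 to 124, slope -0.07, adjusted p = 0.58) had no call at points 2, 3 or 4 relative to point 1.

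These laboratory results lean on point 1. Without culture 2 at point 1, FKS1 (-0.42, adjusted p = 0.17) and UTR2 (-0.63, adjusted p = 0.066) lost their call at point 4 and all 5 lost it at point 2, with changes of -1.56 for GAS1, -1.49 for SCW4, -1.15 for SCW10, -1.03 for UTR2 and -0.44 for FKS1 (adjusted p 0.08 to 0.29). FKS1 also lost its call at point 4 without culture 2 of that point (-0.48, adjusted p = 0.14) and without scaling (-0.45, adjusted p = 0.066), which also took its call at points 2 (-0.54, adjusted p = 0.069) and 3 (-0.41, adjusted p = 0.094). Without culture 1 at point 2, 4 genes had a falling slope, FKS1 (-0.20), GAS1 (-0.43) and SCW4 (-0.38) beside CRH1. The contrasts of points 2 and 3 with point 1 and of point 4 with point 2 were chosen after the values had been seen.

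The difference between the conditions was tested on the slopes, industrial minus laboratory. CRH1 was the 1 gene of the 10 that passed, with a slope of -0.02 under industrial and -0.53 under laboratory conditions, a difference of 0.50 per point (SE 0.12, adjusted p = 0.029), against 2.71% of all genes with a positive call. The industrial CRH1 levels were 278 and 228, 187 and 236, 248 and 190, and 235 and 236 scaled FPKM at points 1 to 4, with no order among the points. The call was lost in 6 of 16 fits without 1 library (differences 0.48 to 0.52, adjusted p 0.064 to 0.079). The differences of the other 9 genes lay between -0.24 for BGL2 and 0.29 for UTR2, with adjusted p from 0.12 to 0.63. In the sample titles, points 3 and 4 carry higher sample numbers under laboratory than under industrial conditions. A slope per point therefore need not span the same time or the same slowing of growth. Feed glucose, medium, pH, CO2, sequencing and the sampling schedule all differed between the 2 conditions and cannot be told apart.

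**Figure D4:**
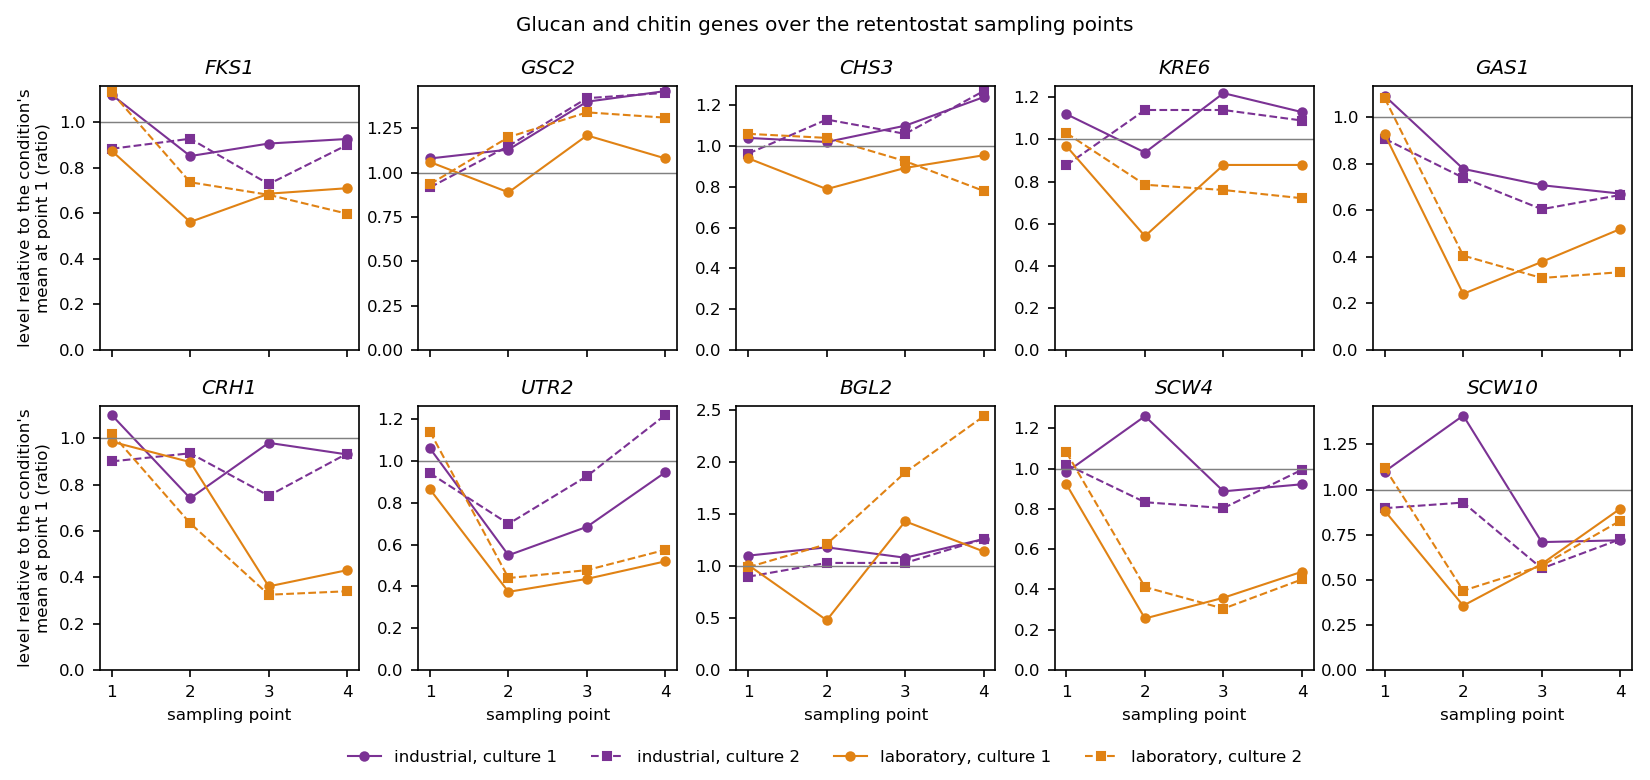
Level of each gene relative to the mean of its condition at sampling point 1 (ratio, vertical axis from 0) over the 4 sampling points; lines are single cultures, purple for industrial and orange for laboratory retentostats. In the laboratory cultures SCW4, GAS1 and UTR2 drop by point 2 and CRH1 by point 3, whereas SCW10 returns toward its start by point 4, and under industrial conditions GSC2 climbs in both cultures.

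Of the 43 other wall genes, 39 were tested in the industrial and 42 in the laboratory trend. Under industrial conditions 2 rose and 0 fell in limma's test, against 8.21% and 8.05% of all genes, and 3 had a negative slope at an unadjusted p under 0.05. Of those that rose, CHS6, part of the complex that carries Chs3 to the surface, was past the limits (slope 0.20, SE 0.03, adjusted p = 0.0077). NCA3, a SUN-family gene, rose by 1.99 on the log2 scale from point 1 to point 4 (SE 0.26, adjusted p = 8.0e-04). Under laboratory conditions 7 of 42 rose and 5 fell, close to the 17.7% and 13.6% of all genes. Past the limits were EXG1 (-0.44) and KNH1 (-0.31), which fell, and GAS4 (0.30), known from spore wall formation, and KRE5 (0.15), needed for β-1,6-glucan, which rose. From point 1 to point 4, SIM1 and EXG1 fell by 1.72 and 1.33 under laboratory conditions.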

How the data were processed

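RNA of *S. cerevisiae* CEN.PK113-7D was sequenced in 26 libraries, 16 of them from 4 retentostat cultures sampled repeatedly. Per the labels and the study's methods, poly(A) libraries were aligned to build R64 with STAR 2.5.3a, ambiguously mapped reads were removed and reads were counted per gene with HTSeq, and the authors deposited FPKM values. The study itself tested its counts after TMM normalization. Labels and methods differ on which company sequenced the laboratory retentostats. Whole reads could be recovered from the FPKM (99.7 to 99.9% of values within 0.05, for genes of up to 1000 reads), which gave the depth. No pair of libraries held identical values (0 of 325 pairs), and correlations between replicates were 0.947 to 0.997. The study calls its culture replicates biological. The titles give each chemostat library its own prefix, of the kind that marks the cultures in the retentostats. No label states that this prefix names a culture, so p-values measure the spread between these libraries.

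FPKM were multiplied by a median-ratio factor per library, from 5422 genes, and log2(scaled FPKM + 1) was fitted with limma 3.58.1 in R 4.3.3 (eBayes with a mean-variance trend, two-sided, Benjamini-Hochberg over all genes with a mean of at least 10). Folds of low genes are understated on this scale. A gene rose or fell at an adjusted p under 0.05. The fits held 12 chemostat, 8 laboratory, 8 industrial or 16 retentostat libraries. The method was tested on simulated data. Paralogs were aligned with MAFFT 7.526. The window ahead of SCW4 is not reported here. All 10 genes are named, and of the 43 others those past the study's limits, at most 3 per list and direction. The genes and lists were chosen with earlier results of these data known.

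Retentostat libraries with the same number come from the same culture sampled again (correlations of their deviations -0.068 to 0.224 under industrial and -0.019 to 0.718 under laboratory conditions), so the culture was tried as a replicate block. Other scalings, filters and pseudocounts, other sets of libraries and each library left out were also tried.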

Additional observations from a re-analysis of the deposited data

Results flagged for a closer look

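For 5 of the genes, the change with CO2 at pH 3 differed from the change with CO2 at pH 5 by a test of the difference itself (limma, Benjamini-Hochberg). The interaction was -2.01 for SCW4 (SE 0.40, adjusted p = 0.0076), -1.65 for GAS1 (SE 0.39, adjusted p = 0.017), -1.44 for CRH1 (SE 0.35, adjusted p = 0.017), -1.47 for FKS1 (SE 0.41, adjusted p = 0.031) and -1.15 for KRE6 (SE 0.37, adjusted p = 0.048), on the log2 scale. Of all genes, 14.6% passed with this sign. FKS1 and KRE6 lost their call in 8 and 9 of the 12 fits without 1 library, and the count of genes ran from 1 to 7. GAS1 and CRH1 lost theirs in fewer such fits. For CRH1 the slope over the sampling points differed between industrial and laboratory retentostats by 0.50 per point (SE 0.12, adjusted p = 0.029). Of all genes, 2.71% had a positive call, and that of CRH1 was lost in several fits without 1 library. The later points carry different sample numbers in the industrial and laboratory titles, so they need not span the same time.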

How the results depend on the processing

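No called change of the 10 genes reversed under any alternative run. With only the 2 groups compared in the fit, 5 genes rose at pH 3 relative to pH 5 with 0.04% CO2 (3 in the fit of all 12 libraries), and 6 rose without both low pH 5 libraries. Between pH 3 with 50% CO2 and the reference, 1 gene fell without scaling, with a replicate block, with the single library labelled as a chemostat and with only the 2 groups compared, and 9 fell without both low libraries (2 in the main analysis). Between pH 3 and pH 5 at 50% CO2, 0 fell with a replicate block, with the single library and with only the 2 groups compared, and 7 fell without both low libraries (1 in the main analysis). In the interaction 8 passed with a negative sign without both low libraries (5 in the main analysis), and 0 changed at point 4 relative to point 1 under industrial conditions with quantile normalization. Leaving out each library in turn gave 0 to 2 genes for the difference of trends, 0 to 1 for industrial point 4 against point 1, 0 to 4 for the industrial trend, 1 to 7 for the interaction, 3 to 6 for laboratory point 4 against point 1, 1 to 4 for the laboratory trend, 1 to 6 for pH 3 against pH 5 with 0.04% CO2, 9 to 10 for 50% against 0.04% CO2 at pH 3, 0 to 6 for pH 3 with 50% CO2 against the reference, 0 to 4 for pH 3 against pH 5 with 50% CO2 and 0 to 0 for CO2 at pH 5. The cause of these shifts was not tested. In both low pH 5 libraries nearly all of the 10 genes were lowest. Without both of them more genes fell from pH 5 at 50% CO2, and more rose from pH 5 at 0.04% CO2. For the fits with other sets of libraries the share of all genes called is not given, so these counts have no such share beside them. In the chemostats libraries of 1 replicate number share only that number, with correlations of deviations of -0.762 to 0.457 against -0.690 to 0.831 for other numbers. The highest, 0.831, was that between the low pH 5 libraries. The replicate block there also took the call from FKS1 (0.92, adjusted p = 0.063) at pH 3 with 0.04% CO2, from CHS3 (-0.61, adjusted p = 0.067) in pH 3 with 50% CO2 against the reference, from SCW4 (-1.17, adjusted p = 0.065) at 50% CO2 and from KRE6 (-1.15, adjusted p = 0.076) in the interaction. With the culture as a block in the retentostats, the 1 call that changed was that of SCW10 at industrial point 3. UTR2 rests on the fewest reads, 146 at the lowest.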
